A study of Mus musculus with 6 samples.

Results

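The transcripts described here are those of 10 genes of the TGF-beta pathway in cultured stromal fibroblasts of the mouse mammary gland: the ligands Tgfb1, Tgfb2 and Tgfb3, the receptors Tgfbr1, Tgfbr2 and Tgfbr3, the feedback inhibitors Smad7 and Skil, and the matrix genes Ltbp2 and Tgfbi. They were chosen by gene symbol, and all 10 were found among the 23337 genes listed in the count tables. RNA was sequenced from 3 Sharpin-cpdm cultures (genotype cpdm/cpdm, Sharpin deficient) and 3 wild-type cultures (wt/wt). All were of the C57BL/KaLawRij strain, came from mice aged 7 weeks, held cells pooled from 3 mice each, and were grown to confluence in medium with serum at passage 0. The cpdm allele is a spontaneous mutation of Sharpin that is carried in every cell of the animal, and the serum in the medium is itself a source of TGF-beta. The SHARPIN protein works in the complex that builds linear ubiquitin chains and can also hold integrins inactive.

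TGF-beta ligands are secreted in a latent form, bound to their own propeptide and, for most of the pool, to latent TGF-beta binding proteins in the matrix. Once released, a ligand dimer binds the type II receptor TGFBR2, which phosphorylates the type I receptor TGFBR1, and that kinase phosphorylates SMAD2 and SMAD3, which move to the nucleus with SMAD4. Betaglycan, the product of Tgfbr3, is a membrane proteoglycan that presents ligand to TGFBR2 and is needed most for the ligand from Tgfb2. In the mammary gland TGF-beta is known as a brake on duct growth and branching, and in fibroblasts as an inducer of matrix and contractile genes.

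Tgfbr3 is the gene on which the genotype comparison turns. The end of its open reading frame is shown because it sets this receptor apart from the kinases: it encodes a short tail without a kinase domain. The 120 coding bases before the stop codon are printed 5′ to 3′ from the GENCODE M21 transcript (chromosome 5, minus strand). The capitals mark the last 3 codons, which encode the end of the tail that the PDZ domain of the adaptor GIPC binds.
Tgfbr3: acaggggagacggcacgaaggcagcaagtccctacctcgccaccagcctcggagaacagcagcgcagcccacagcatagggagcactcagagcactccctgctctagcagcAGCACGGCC

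Tgfbr3 fell in Sharpin-cpdm cultures in the fit with the replicate number as a block, the single member of the 10 to pass it. The fit planned as the main one, without the block, called 0 members. It is annotated at chromosome 5, 107106570 to 107289629 on the minus strand (mm10, GENCODE M21). Its levels were 155, 64.7 and 259 CPM (gene counts scaled to library size with TMM factors) in Sharpin-cpdm replicates 1 to 3, against 233, 98.4 and 408 CPM in wild-type replicates 1 to 3. The ranges of the genotypes overlapped, but each Sharpin-cpdm library was below its same-numbered wild-type library. Within the pairs the log2 ratio was -0.59, -0.60 and -0.66. With the replicate number as a block, the log2 fold change was -0.62 ± 0.04 (SE, n = 3 pairs), a level of 0.652 times wild type (adjusted p = 0.00598; quasi-likelihood F-test of edgeR, Benjamini-Hochberg over 13442 genes). Without the block the difference of -0.63 ± 0.63 was no larger than the spread between cultures, with an adjusted p of 1 from edgeR. Leaving out 1 pair kept the fold change between -0.63 and -0.60, with blocked edgeR adjusted p = 0.000943, 0.0268 and 0.0475 without pairs 1, 2 and 3. A gene is called, and described as rising or falling, only where this blocked edgeR fit gave it an adjusted p under 0.05. The annotated gene Gm43422 shares 4.54% of the exon length of Tgfbr3 on the same strand, where reads cannot be told apart.

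The labels do not say what a replicate number marks. Same-numbered libraries deviated together from their genotype's mean, as set out under the processing, and the fit with the block rests on that. Sharpin itself, the check of the labels, stood at 10.3, 9.43 and 9.25 CPM in Sharpin-cpdm libraries and at 24.2, 25.8 and 31.3 CPM in wild-type libraries, with no overlap. Its log2 fold change was -1.48 ± 0.12 with the block (adjusted p = 0.00598, edgeR) and -1.49 ± 0.14 without it (adjusted p = 0.272, edgeR). Each library held between 13570649 and 15656196 gene counts, and a member had between 382 and 16790 counts in a library. All 10 members passed the filter on low counts. Without the block, edgeR's test called 0% of the tested genes, with 307 at an unadjusted p under 0.05; limma-voom called 0 with 272 at that p, and DESeq2 called 10, or 0.0744% of the genes it tested, of which 0 were members. With the block it called 1 of the 10 members, beside 2.51% of all tested genes. That member was lower and 0 were higher, beside 2.11% of genes called lower and 0.394% called higher. For 0 of the 10 members did the 2 genotypes separate without overlap, beside 5.91% of the tested genes (3.3% lower and 2.61% higher). In all, 4 members kept 1 direction in all 3 pairs (3 below wild type and 1 above), beside 41.1% of the tested genes (20.3% below and 20.8% above).

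**Figure D1:**
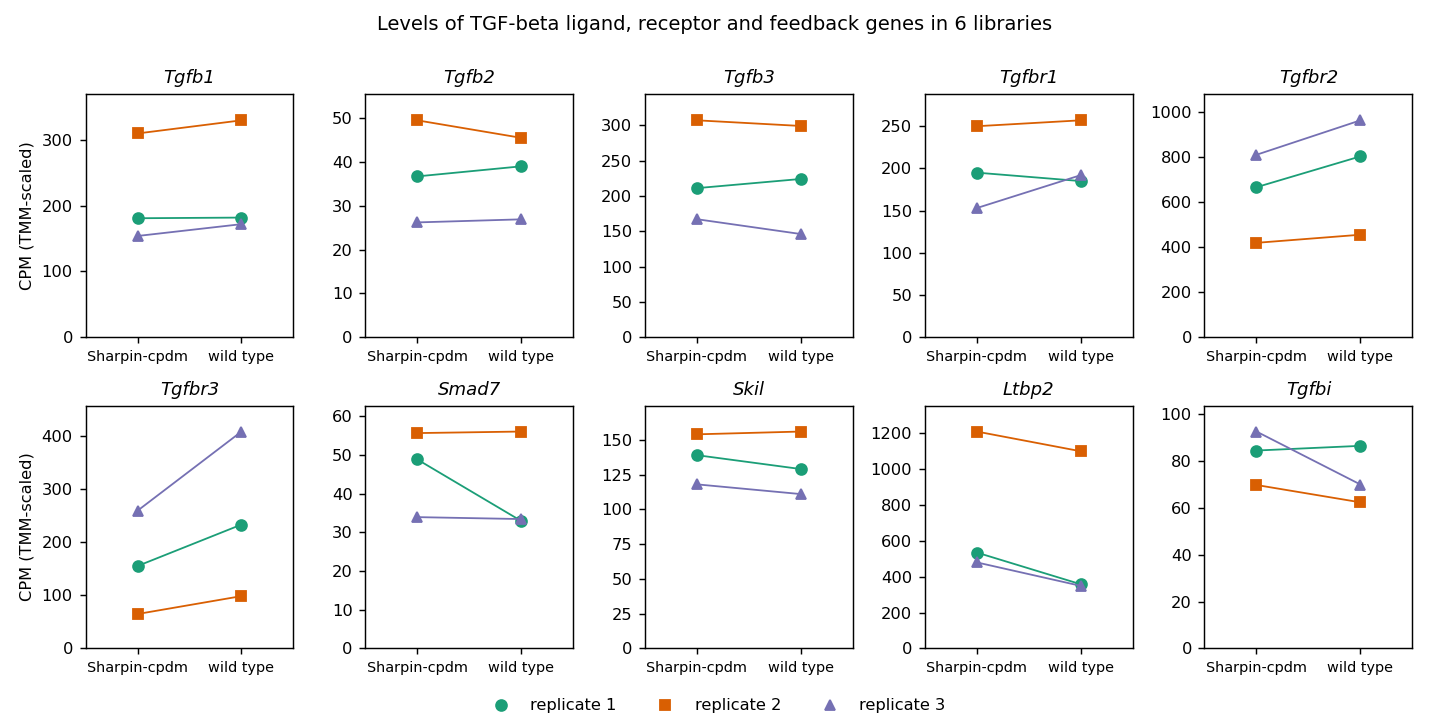
CPM of each gene in each library, Sharpin-cpdm on the left and wild type on the right of every panel, with a line joining libraries of the same replicate number and each axis starting at 0. For Tgfbr3 all 3 lines run up to wild type, while the genotypes overlap for every gene shown.

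The signalling receptors did not pass. Tgfbr2, which binds the ligand and starts the signal (chromosome 9, 116084293 to 116175360, minus strand), had 666, 419 and 810 CPM in Sharpin-cpdm replicates 1 to 3, against 803, 455 and 963 CPM in wild-type replicates 1 to 3. It was lower in the Sharpin-cpdm library of every pair, with a log2 fold change of -0.21 ± 0.05 (blocked edgeR, adjusted p = 0.0903). Tgfbr1, the kinase that phosphorylates the SMADs (chromosome 4, 47353222 to 47414931, plus strand), had 195, 250 and 153 CPM in Sharpin-cpdm cultures against 185, 257 and 192 CPM in wild-type cultures. Its pairs moved both ways, and the log2 fold change was -0.10 ± 0.08 (blocked edgeR, adjusted p = 0.588). The ratio of Tgfbr3 to Tgfbr2 reads was 0.233, 0.154 and 0.320 in Sharpin-cpdm replicates 1 to 3 and 0.290, 0.216 and 0.424 in wild-type replicates 1 to 3. The ratio was thus lower in the Sharpin-cpdm library of each pair, by 0.32, 0.49 and 0.41 on the log2 scale, a value that does not depend on library scaling. Whether the fold changes of the receptors differ from each other was not tested.

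Where Tgfbr3 fell, markers of other cell types moved too. Fewer cells of a type and less RNA per cell cannot be told apart in such bulk samples, and betaglycan is made by endothelial and other stromal cells as well as fibroblasts. Of 21 endothelial markers, 16 fell and 0 rose, beside 2.11% of all tested genes called lower and 0.394% called higher. The log2 fold change was below 0 for all 21, with a median of -0.78. All 21 were detected, and their summed level was 545 to 857 CPM in Sharpin-cpdm libraries against 777 to 1500 CPM in wild-type libraries. The summed endothelial level was lowest in replicate 1 of each genotype, and Tgfbr3 was lowest in replicate 2 of each. Pericyte markers had 3 of 8 tested genes lower and a median of -0.41, with sums of 1600 to 1640 CPM in Sharpin-cpdm and 1700 to 1810 CPM in wild type. Fibroblast markers had 5 of 10 that fell and 8 below 0, with a median of -0.32. Their sums were 11900 to 13100 CPM in Sharpin-cpdm and 12000 to 13700 CPM in wild type. Here Fbln2 and Vim, named after their values were seen and not called, made up most of the sums. They averaged 6920 and 3130 CPM in Sharpin-cpdm and 6820 and 2870 CPM in wild type. Lum and Dpt, matrix proteins of fibroblasts, fell by 0.71 ± 0.07 and 1.27 ± 0.13 on the log2 scale. Of the 10 fibroblast markers, 4 were lowest in replicate 2 of both genotypes and 3 were highest there, beside 29.3% and 28.9% of all tested genes. The called marker Cd34 (-0.92 ± 0.07) was lowest in replicate 1 and highest in replicate 3 of each genotype, as the summed endothelial level was. Fap, also called (-0.35 ± 0.05, named after its values were seen), was lowest in replicate 3 of each. Of 12 macrophage and 9 epithelial markers tested, the blocked edgeR fit called 0, at medians of -0.08 and -0.36. Macrophage sums were 148 to 415 CPM in Sharpin-cpdm and 81.7 to 490 CPM in wild type, and epithelial sums were 183 to 443 CPM in Sharpin-cpdm and 309 to 594 CPM in wild type. Every marker in these 5 lists had counts in at least 1 library, so the cultures labelled as fibroblasts expressed fibroblast genes together with markers of other cell types. The part of these cell types in the Tgfbr3 difference was not tested, and the order of replicate numbers cannot show it.

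**Figure D2:**
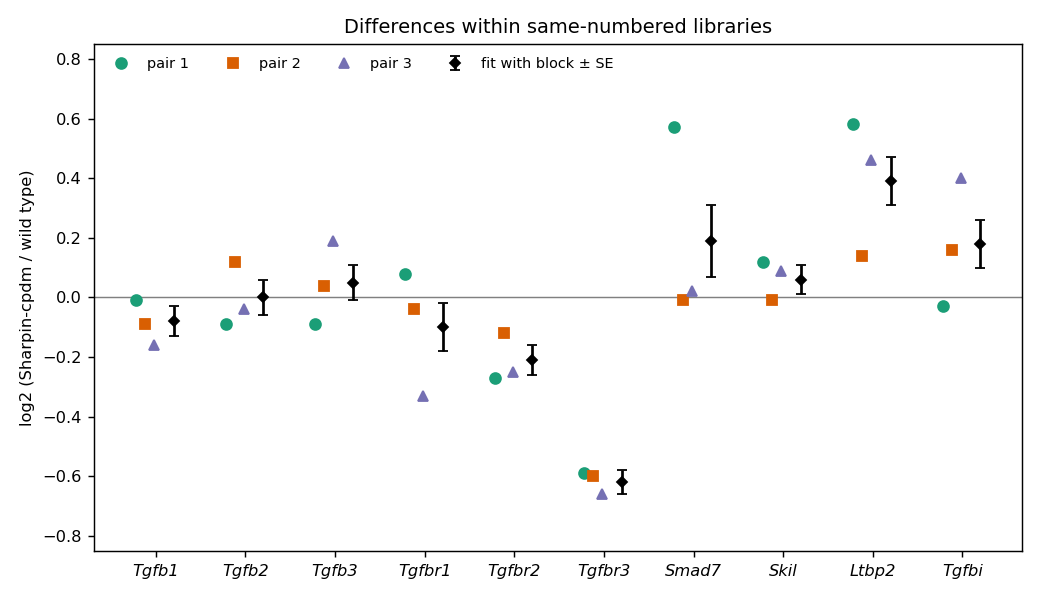
Log2 ratio of Sharpin-cpdm to wild type within each pair of same-numbered libraries (coloured symbols) and the edgeR estimate with the replicate block ± SE (black diamonds), for each of the 10 genes. The 3 Tgfbr3 pairs lie between -0.66 and -0.59, and those of Ltbp2 between 0.14 and 0.58.

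The ligands are close relatives, and part of the mature coding sequence of Tgfb1 and Tgfb3, which have the most ligand reads per length, is shown to make plain how alike these transcripts are. The mature ligand is encoded by 336 bases after the proprotein cleavage site, and the last 300 before the stop codon are printed 5′ to 3′ from GENCODE M21 transcripts (Tgfb1 on chromosome 7, plus strand; Tgfb3 on chromosome 12, minus strand). Capitals mark the 220 bases that are the same in both.
Tgfb1: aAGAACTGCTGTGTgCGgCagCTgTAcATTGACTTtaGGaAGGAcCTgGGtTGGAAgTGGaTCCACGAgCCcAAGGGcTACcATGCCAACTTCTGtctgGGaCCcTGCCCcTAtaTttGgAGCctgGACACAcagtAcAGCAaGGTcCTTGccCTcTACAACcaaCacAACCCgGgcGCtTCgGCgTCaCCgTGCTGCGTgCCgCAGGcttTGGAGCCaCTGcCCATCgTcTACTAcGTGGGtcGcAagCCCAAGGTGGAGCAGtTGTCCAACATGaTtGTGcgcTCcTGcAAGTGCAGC
Tgfb3: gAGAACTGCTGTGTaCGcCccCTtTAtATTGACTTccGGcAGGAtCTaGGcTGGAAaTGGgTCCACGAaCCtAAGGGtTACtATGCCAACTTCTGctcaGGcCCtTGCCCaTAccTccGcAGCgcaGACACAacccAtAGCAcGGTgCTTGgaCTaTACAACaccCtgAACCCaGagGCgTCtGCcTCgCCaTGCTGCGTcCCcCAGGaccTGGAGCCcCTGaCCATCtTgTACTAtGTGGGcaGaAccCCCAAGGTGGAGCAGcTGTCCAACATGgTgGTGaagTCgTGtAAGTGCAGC

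Over the 336 bases Tgfb1 and Tgfb3 shared 73.5% of bases. Over the whole annotated transcripts the longest run of identical bases between 2 ligands was 15, and between 2 receptors also 15.

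None of the ligand transcripts passed. Tgfb1 (chromosome 7, 25687002 to 25705077, plus strand), the ligand most studied in fibrosis, had 181, 310 and 154 CPM in Sharpin-cpdm replicates 1 to 3 against 182, 330 and 172 CPM in wild-type replicates 1 to 3. Its log2 fold change was -0.08 ± 0.05 (blocked edgeR, adjusted p = 0.426), and it was below wild type in every pair, by between 0.01 and 0.16 on the log2 scale. Tgfb2 (chromosome 1, 186622792 to 186705989, minus strand), the ligand that depends most on betaglycan, had 36.7, 49.5 and 26.2 CPM in Sharpin-cpdm cultures against 39.0, 45.5 and 26.9 CPM in wild-type cultures. Tgfb3 (chromosome 12, 86056745 to 86079041, minus strand), which is abundant in mesenchyme, had 211, 307 and 167 CPM in Sharpin-cpdm cultures against 224, 299 and 146 CPM in wild-type cultures. The log2 fold changes were 0.00 ± 0.06 for Tgfb2 and 0.05 ± 0.06 for Tgfb3 (blocked edgeR, adjusted p = 0.993 and 0.737). For each ligand, replicate 2 was the highest and replicate 3 the lowest in both genotypes, and the genotypes overlapped.

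Per length of coding transcripts, Tgfb1 and Tgfb3 made up most of the ligand reads. Tgfb1 took 56.6 ± 2.12% of the summed reads per kb in Sharpin-cpdm and 58.7 ± 4.86% in wild type (SD, n = 3 each), Tgfb3 took 39.2 ± 1.77% in Sharpin-cpdm and 37.2 ± 4.35% in wild type, and Tgfb2 took 4.19 ± 0.386% in Sharpin-cpdm and 4.12 ± 0.627% in wild type. The order of Tgfb1 and Tgfb3 depends on the length used: per kb of the exons of all annotated transcripts, Tgfb3 took 58.2% in Sharpin-cpdm and 56.1% in wild type. Among the receptors, Tgfbr2 took 57.0 ± 5.24% in Sharpin-cpdm and 55.1 ± 4.98% in wild type. Tgfbr3 took 18.0, 10.2 and 25.1% in Sharpin-cpdm replicates 1 to 3 against 22.5, 14.0 and 30.5% in wild-type replicates 1 to 3, lower in each pair. Over unpaired libraries the two-sided exact permutation test gave p between 0.5 and 1 for the 6 genes before adjustment, where 3 against 3 libraries cannot go below 0.1. Within pairs the Tgfbr3 share differed by -4.51, -3.82 and -5.43 percentage points, a mean of -4.59 ± 0.806 (SD, n = 3 pairs), and the Tgfbr1 share by 4.69, 2.78 and 0.45 points. The exact sign-flip permutation test over pairs gave p = 0.25 for both, the smallest it can give with 3 pairs, so neither test can call a share. The shares of the other 4 genes moved both ways within pairs.

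**Figure D3:**
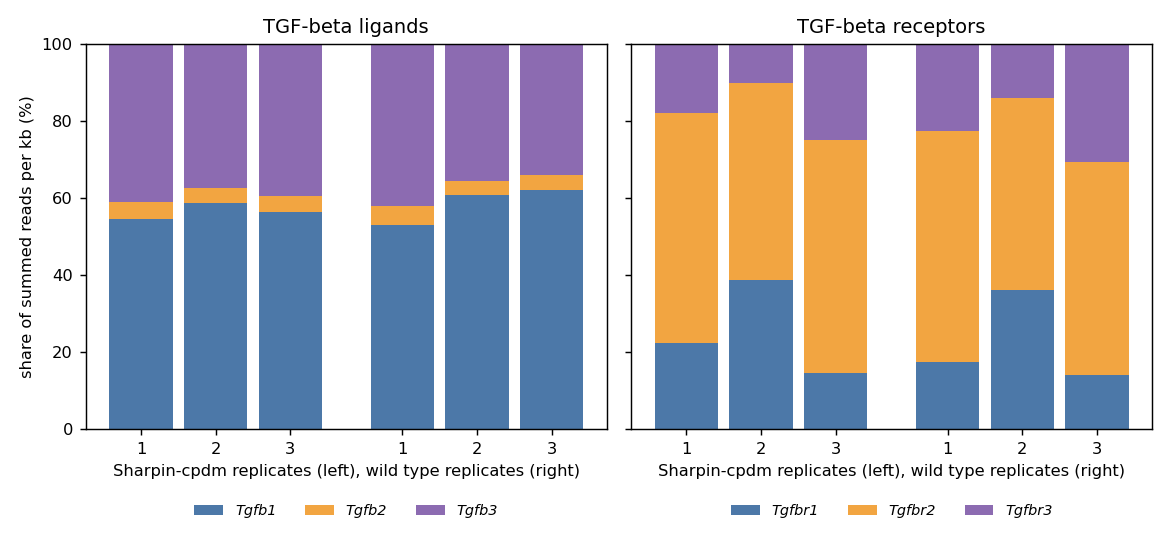
Share of each ligand (left) and each receptor (right) in the summed reads per kb of its family, in percent, with 1 bar per library and the Sharpin-cpdm libraries left of the wild-type libraries. The Tgfb1 share lies between 53.1% and 62.0%, while that of Tgfbr3 runs between 10.2% and 30.5% and is smallest in replicate 2 of each genotype.

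Across all 10 genes, Ltbp2, Tgfb1, Tgfbr2 and Tgfb3 stood highest on the scale of CPM per kb, at 110 ± 60.0, 98.9 ± 38.5, 77.2 ± 24.1 and 67.6 ± 21.1 in Sharpin-cpdm and 88.8 ± 63.4, 105 ± 40.6, 90.4 ± 31.7 and 66.0 ± 22.6 in wild type. The ranges of these 4 overlapped with each other in both genotypes, though with this length Tgfb1 lay above Tgfb3 within every library. Tgfbr1, Tgfbi, Tgfbr3 and Skil followed, with means between 20.4 and 31.1 in Sharpin-cpdm and between 19.6 and 39.1 in wild type. Smad7 and Tgfb2 were lowest, at 10.5 ± 2.54 and 7.21 ± 2.24 in Sharpin-cpdm and 9.31 ± 3.01 and 7.14 ± 1.81 in wild type. Their ranges overlapped too, but Smad7 lay above Tgfb2 within every library, by little in wild-type replicate 1 (7.52 against 7.5). Skil lay above Smad7 in every library of both genotypes.

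The feedback genes and the matrix genes did not pass. Ltbp2, a matrix protein of elastic fibres from the family of latent TGF-beta binding proteins (chromosome 12, 84783212 to 84876532, minus strand), had 535, 1210 and 480 CPM in Sharpin-cpdm replicates 1 to 3 against 358, 1100 and 349 CPM in wild-type replicates 1 to 3. It was the 1 member above wild type in all 3 pairs, by 0.58, 0.14 and 0.46 on the log2 scale. The log2 fold change was 0.39 ± 0.08 (blocked edgeR, adjusted p = 0.0778). That adjusted p lies near the threshold: it was 0.00659 in DESeq2 with the block, 0.0355 in edgeR with the block and no filter on low counts, and 0.0449 in edgeR with the block but without pair 2. It stayed above the threshold at 0.0676 in limma-voom and between 0.069 and 0.076 with library totals, offsets or RLE scaling, all with the block, and was 0.0764 without pair 1 and 0.322 without pair 3. An antisense gene, D030025P21Rik, shares 9.34% of the exon length of Ltbp2. Since no strand setting was given, how reads in that overlap were counted is not known. The level of D030025P21Rik itself averaged 2.10 CPM in Sharpin-cpdm cultures against 1.61 CPM in wild-type cultures.

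Tgfbi, a matrix adhesion protein induced by TGF-beta (chromosome 13, 56609523 to 56639562, plus strand), had 84.4, 69.7 and 92.5 CPM in Sharpin-cpdm cultures against 86.4, 62.3 and 69.9 CPM in wild-type cultures. Its log2 fold change was 0.18 ± 0.08 (blocked edgeR, adjusted p = 0.351), and it was 0.29 without pair 1 and 0.06 without pair 3 (adjusted p = 0.0719 and 0.787). Smad7, the inhibitory SMAD that directs ubiquitin ligases to the receptors (chromosome 18, 75367529 to 75395935, plus strand), had 48.8, 55.6 and 33.9 CPM in Sharpin-cpdm cultures against 32.9, 56.0 and 33.4 CPM in wild-type cultures. The log2 ratio was 0.57 in pair 1, -0.01 in pair 2 and 0.02 in pair 3, and the log2 fold change of 0.19 ± 0.12 did not pass (blocked edgeR, adjusted p = 0.477). Without pair 1 the blocked log2 fold change of Smad7 was 0.00. Skil, which encodes the SMAD co-repressor SnoN (chromosome 3, 31095058 to 31122577, plus strand), had 139, 154 and 118 CPM in Sharpin-cpdm cultures against 129, 156 and 111 CPM in wild-type cultures, with a log2 fold change of 0.06 ± 0.05 (blocked edgeR, adjusted p = 0.552). Both feedback genes were highest in replicate 2 of each genotype.

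Most of the 10 genes differed between cultures of different replicate number. With genotype kept in the fit, 9 of the 10, all but Tgfbi (adjusted p 0.0578), differed between numbers in edgeR's test, beside 37.2% of the tested genes. This test treats same-numbered libraries as replicates. That grouping was taken from these same counts and not from the labels, so the calls describe it and cannot support it. Tgfb1, Tgfb2, Tgfb3, Tgfbr1, Smad7, Skil and Ltbp2 were highest in replicate 2 of both genotypes, 7 of 10 beside 28.9% of the tested genes. Tgfbr2, Tgfbr3 and Tgfbi were lowest in replicate 2 of both, 3 of 10 beside 29.3%. Replicate 2 stood above replicate 1 by 1.40 for Ltbp2, 0.82 for Tgfb1 and 0.48 for Tgfb3 on the log2 scale, whereas Tgfbr3 and Tgfbr2 stood above replicate 2 by 2.03 and 1.02 in replicate 3. In both genotypes the 3 ligands and Tgfbr1 were thus highest in the culture where Tgfbr2 and Tgfbr3 were lowest. Summed macrophage markers were also highest in replicate 2, at 415 CPM against 148 and 251 CPM in the other Sharpin-cpdm cultures, and at 490 CPM against 81.7 and 208 CPM in the other wild-type cultures; their part in the pattern was not tested.

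Known targets of the pathway also differed between replicate numbers. Of 32 tested target genes, 22 were called between numbers, beside 37.2% of all tested genes, and 20 were highest in replicate 2 of both genotypes, beside 28.9%. Ctgf, a matricellular growth factor named after its values were seen, stood higher in replicate 2 than in replicate 1 by 1.63 on the log2 scale. The contractile genes Tagln and Cnn1 stood higher by 1.56 and 2.08. Col1a1 and Col1a2, also named after their values were seen, did not pass between numbers, with edgeR adjusted p = 0.142 and 0.224.

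The stretches before the transcription start are shown for 4 members that moved together or oppositely across the cultures, 3 that were highest in replicate 2 (Tgfb1, Tgfb2, Ltbp2) and 1 that was lowest there (Tgfbr2). RefSeq windows (GRCm38.p6, the mm10 assembly) were found for 6 of the 10 genes. Bases upstream of the annotated start are printed 5′ to 3′ on the strand of the gene. They lie at chr7:25686752-25687001 on the plus strand for Tgfb1, and on the minus strand at chr1:186705990-186706239 for Tgfb2, chr12:84876533-84876741 for Ltbp2 and chr9:116175364-116175613 for Tgfbr2. Capitals mark matches, on either strand, to the short SMAD motif CAGAC, the SMAD palindrome GTCTAGAC, the AP-1 motif TGANTCA, the TEAD motif CATTCC or the TATA motif TATAAA.
Tgfb1: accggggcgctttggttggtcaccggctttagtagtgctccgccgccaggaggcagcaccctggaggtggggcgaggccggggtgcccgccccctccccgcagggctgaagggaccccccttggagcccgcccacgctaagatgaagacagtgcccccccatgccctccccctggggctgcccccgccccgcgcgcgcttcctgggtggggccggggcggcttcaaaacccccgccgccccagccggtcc
Tgfb2: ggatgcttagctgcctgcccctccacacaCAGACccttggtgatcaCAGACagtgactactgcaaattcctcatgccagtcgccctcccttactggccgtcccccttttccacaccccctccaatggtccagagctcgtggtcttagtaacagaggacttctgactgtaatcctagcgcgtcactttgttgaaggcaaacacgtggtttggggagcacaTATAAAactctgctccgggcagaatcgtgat
Ltbp2: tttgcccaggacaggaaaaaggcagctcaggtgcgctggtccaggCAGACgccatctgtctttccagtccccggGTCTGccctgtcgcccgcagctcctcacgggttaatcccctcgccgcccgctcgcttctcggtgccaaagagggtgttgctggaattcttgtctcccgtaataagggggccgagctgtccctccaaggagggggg
Tgfbr2: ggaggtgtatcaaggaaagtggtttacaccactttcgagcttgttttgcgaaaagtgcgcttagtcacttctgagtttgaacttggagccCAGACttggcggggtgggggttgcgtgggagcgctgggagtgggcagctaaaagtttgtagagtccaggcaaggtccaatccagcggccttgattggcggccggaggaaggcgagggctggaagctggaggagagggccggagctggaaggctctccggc

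The motif CAGAC was found at 2 places in the Tgfb2 window, 2 in the Ltbp2 window and 1 in the Tgfbr2 window, and at 0 in the Tgfb1 window. It is a short motif that 42.2% of all RefSeq windows of 250 bases hold, and 37.1% of those of 209 bases, the length used for Ltbp2. TATAAA was found in the Tgfb2 window, as in 12.4% of windows of that length. GTCTAGAC, TGANTCA and CATTCC were found in 0 of the 4, beside 0.167%, 6.75% and 12.6% of windows of 250 bases. The matches describe these letters and are not sites of binding.

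Around the 10 genes, 9 others of the pathway were called, and the medians of the 5 lists lay between -0.04 and 0.05. The share called was 0% of SMAD genes, 15% of latency and activation genes and 20% of co-receptors and decoys. It was 4.76% of intracellular inhibitors and regulators and 9.38% of target genes, beside 2.51% of all tested genes. Whether a list differs from that share was not tested. None of 7 SMAD genes passed, with a median log2 fold change of 0.05; Smad2, which carries the signal of the receptors, had 0.14 ± 0.05 and Smad1, which serves BMP receptors, had -0.14 ± 0.06 (blocked edgeR, adjusted p = 0.223 and 0.289). Of 20 tested genes that hold the ligands latent or release them, Itgb3 and Mmp2 fell and Mmp9 rose, and 17 did not pass, with a median of -0.04. Itgb3, the integrin subunit that with alpha-v can bind latent TGF-beta, had 116, 137 and 107 CPM in Sharpin-cpdm replicates 1 to 3 against 152, 181 and 147 CPM in wild-type replicates 1 to 3, without overlap, and a log2 fold change of -0.42 ± 0.04. The gelatinases Mmp2 and Mmp9, which can release the ligand, changed by -0.60 ± 0.08 and 0.65 ± 0.07. The other latent TGF-beta binding protein genes, Ltbp1, Ltbp3 and Ltbp4, named after their values were seen, did not pass, at -0.31 ± 0.09, 0.01 ± 0.04 and -0.09 ± 0.05.

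Of 10 tested co-receptors and ligand-binding decoys beside Tgfbr3, Cd109 and Dcn fell and 8 did not pass, with a median of -0.01. Cd109, a membrane protein that binds TGF-beta and inhibits its receptor, had a log2 fold change of -0.49 ± 0.07, and Dcn, decorin, a proteoglycan that binds the ligand in the matrix, had -0.90 ± 0.15. Dcn stood at 451, 336 and 758 CPM in Sharpin-cpdm replicates 1 to 3 against 652, 571 and 1990 CPM in wild-type replicates 1 to 3, lowest in replicate 2 of each genotype, as Tgfbr3 was. Eng and Acvrl1, the co-receptor and type I receptor of endothelial cells, named after their values were seen, did not pass, at -0.11 ± 0.06 and 0.05 ± 0.05. Of 21 intracellular inhibitors and regulators, Cav1, caveolin, which takes part in receptor turnover and is also abundant in endothelial cells, fell by 0.34 and 20 did not pass, with a median of 0.01. Endothelial markers, of which 16 of 21 fell, moved the same way as these falls, and their part in them was not tested. Adjusted p was 0.0103, 0.0216 and 0.0106 for Itgb3, Mmp2 and Mmp9 and 0.0265, 0.0403 and 0.0293 for Cd109, Dcn and Cav1 (blocked edgeR).

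Of 32 tested target genes of TGF-beta, Eln fell, Tagln and Cnn1 rose and 29 did not pass, with a median of 0.03 beside 0 over all tested genes. Eln, elastin, had 195, 289 and 226 CPM in Sharpin-cpdm replicates 1 to 3 against 332, 424 and 372 CPM in wild-type replicates 1 to 3, without overlap, and a log2 fold change of -0.68 ± 0.05 (blocked edgeR, adjusted p = 0.00598). The smooth muscle genes Tagln and Cnn1 rose by 0.41 ± 0.07 and 0.51 ± 0.09 (blocked edgeR, adjusted p = 0.0395 and 0.0441). On the opposite strand, Gm48529 shares 62.4% of the exon length of Tagln and Gm15270 shares 23.2% of that of Ctgf. How reads in these overlaps were counted is not known. Cnn1 stood at 48.5, 182 and 26.5 CPM in Sharpin-cpdm replicates 1 to 3 against 31.1, 148 and 16.1 CPM in wild-type replicates 1 to 3, highest in replicate 2 of each genotype. Ctgf, which answers directly to SMAD3, did not pass, at 0.04 ± 0.07. Of the 9 called genes, Eln passed whichever pair was left out. Without pair 2, Itgb3, Mmp2, Mmp9, Dcn, Cav1 and Tagln no longer passed (blocked edgeR, adjusted p = 0.0566, 0.0717, 0.0517, 0.102, 0.0824 and 0.0527). Without pair 3, Itgb3, Cd109, Cav1, Tagln and Cnn1 no longer passed (blocked edgeR, adjusted p = 0.0664, 0.107, 0.145, 0.205 and 0.176). In limma-voom with the block and all 3 pairs, Cnn1 did not pass either (adjusted p = 0.0559). The direction of each of the 9 in the blocked fits was the same without any 1 pair.

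**Figure D4:**
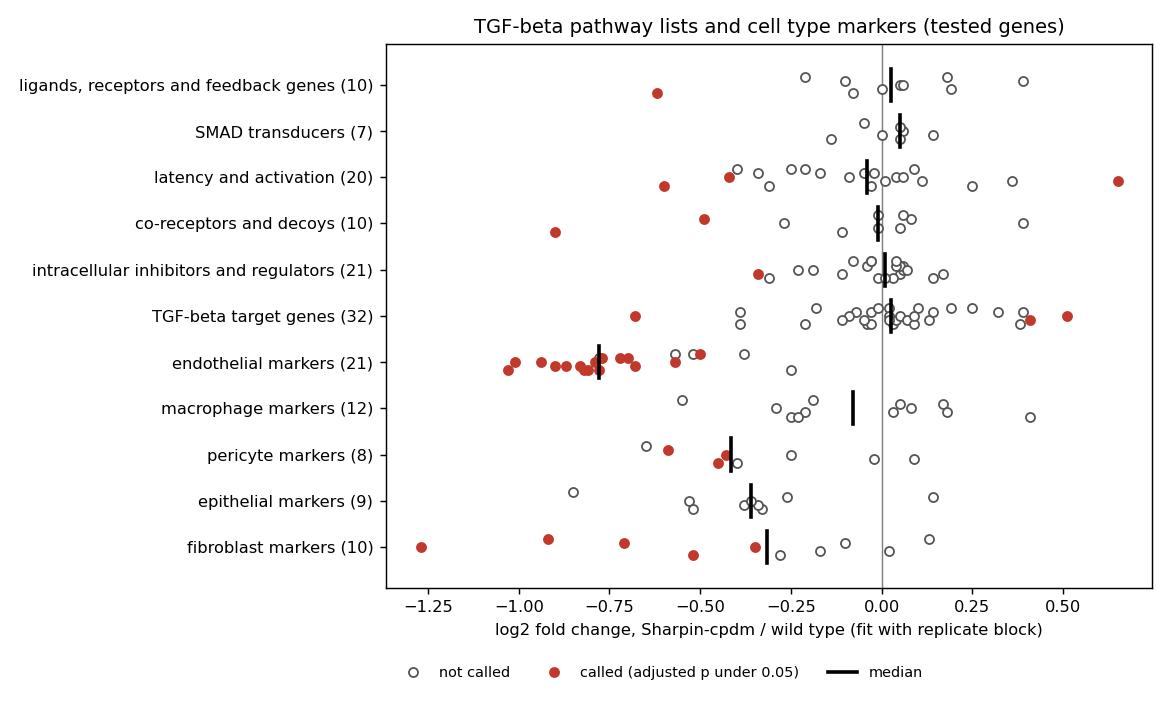
Log2 fold change of Sharpin-cpdm over wild type in the fit with the replicate block, 1 point per tested gene, with the number of tested genes beside each list name. Filled red points passed the test and black bars are medians, which lie between -0.04 and 0.05 for the 6 TGF-beta groups and at -0.78 for the endothelial markers.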

How the data were processed

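RNA was sequenced from 6 cultures. Per the submitters' processing notes, the mm10 build was used with TopHat2 2.0.10, HTSeq 0.5.4p3 and bcl2fastq 1.8.4. Not given in the sources used here are annotation, read length and strand setting. Deposited by the authors were counts, in whole reads per gene symbol, with 5 summary rows that were left out of library sizes and tests and held 48.8% to 51.2% of all entries, mostly alignments that were not unique.

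Tests were run with edgeR 4.0.16 under R 4.3.3: filterByExpr (13442 of 23337 genes kept), TMM scaling, and a two-sided quasi-likelihood test of genotype with Benjamini-Hochberg adjustment over all tested genes at 0.05, without and with the replicate number as a block. limma 3.58.1 (voom), DESeq2 1.42.0, other scalings, no filter, offsets for GC content and length, and leaving out libraries or pairs were alternatives. The SE was taken as the absolute log2 fold change over the root of the F statistic. Lengths are merged exons of protein-coding GENCODE M21 transcripts. Both fits were run on simulated data drawn with shifts shared by same-numbered libraries, which cannot show whether the pairing holds in these cultures.

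Same-numbered libraries deviated together from their genotype means, with correlations across genes of 0.457, 0.809 and 0.737 for numbers 1, 2 and 3, against -0.691 to 0.00677 for other combinations, and on this ground libraries were paired by number, which the labels do not state. No libraries of a genotype were duplicates (chi-square per degree of freedom 16.9 to 85.2). The members and lists were chosen with earlier results of these data known. Beyond the members and Sharpin, the text names up to 4 called genes per list, or the 2 with the smallest p where none was called; other names are marked. Replicates are separate pools of mice.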

Additional observations from a re-analysis of the deposited data

How the results depend on the processing

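The genotype comparison depends on the pairing. The main fit was planned without the block, with the blocked fit as its alternative. Reading the calls from the blocked fit rests on the data. Without the block, edgeR's test called 0 genes, under every scaling, filter and omission of a library that was run, and DESeq2 called 10. With the replicate block it called 337, and 336 with RLE scaling, 365 with library totals only, 352 with GC and length offsets, 502 with no filter, 341 in DESeq2 and 379 in limma-voom. Leaving out a library or a pair gave between 0 and 653 calls: with the block, 653 without pair 1, 128 without pair 2 and 44 without pair 3. Members called were 1 with the block and with RLE, library totals, offsets and limma-voom, and 2 (Tgfbr3 and Ltbp2) in DESeq2 with the block and with no filter; leaving out gave between 0 and 2. Tgfbr3 was called in all 7 fits with the block on 3 pairs, at -0.62 to -0.60. Other pathway genes called were 9 with the block, 9 with RLE, 11 with library totals, 10 with offsets, 17 with no filter, 16 in DESeq2 and 11 in limma-voom, and between 0 and 17 when leaving out, with 17, 3 and 4 without pairs 1, 2 and 3. Some log2 fold changes changed sign when 1 library or pair was left out, also those of Ltbp2 and of the called genes Tagln and Cnn1, which were -0.25, -0.44 and -0.80 without Sharpin-cpdm replicate 2 and without the block. Over the omissions without the block they ran from -0.44 to 0.28 for Tgfb1, -0.24 to 0.21 for Tgfb2, -0.24 to 0.30 for Tgfb3, -0.28 to 0.08 for Tgfbr1, -0.48 to 0.01 for Tgfbr2, -0.05 to 0.20 for Skil, -0.25 to 1.07 for Ltbp2, -0.44 to 1.28 for Tagln and -0.80 to 1.86 for Cnn1, and Tgfb2 was -0.02 in limma-voom without the block. With the block, leaving out a pair gave -0.06 to 0.05 for Tgfb2, -0.03 to 0.11 for Tgfb3 and -0.18 to 0.02 for Tgfbr1. Leaving out a library unbalances the pairs; other causes were not tested. Tgfbr3 ran from -1.17 to -0.05 without the block and kept its sign. Differences in share, in percentage points, kept their sign with other lengths. Without 1 library they ran from -4.9 to -0.443 for Tgfb1, -0.228 to 0.397 for Tgfb2, 0.399 to 4.51 for Tgfb3, -4.16 to 9.37 for Tgfbr1, -0.623 to 4.96 for Tgfbr2 and -8.75 to -0.516 for Tgfbr3. The settings with the block in DESeq2, limma-voom, library totals and offsets, the length over all transcripts, the shares within pairs and the test between replicate numbers were chosen after seeing the data. Each member had at least 382 counts per library.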
